A study of Mus musculus with 56 samples.

Results

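The last 4 h of the light phase were examined in gastrocnemius, a calf muscle, of mice that were fed only at night. The comparison set muscle taken at ZT12 (zeitgeber time, hours from lights on; ZT12 is lights off and the end of the daytime fast) against muscle taken at ZT8, within each gene. These were 8 of the 56 libraries of the series, 4 from nighttime-restricted feeding (NRF) at ZT12 and 4 from NRF at ZT8, chosen by their labels and not by any measured value. For the same clock hours under the opposite regimen, 4 libraries from daytime-restricted feeding (DRF) at ZT12 and 4 from DRF at ZT8 were used. Those mice had food in the light phase. All groups were female C57BL/6J mice, 9 weeks old, on a daily cycle with a 12 h light phase. All had 7 days of chow without restriction and then 7 days of restricted feeding. The labels number the libraries within a group but do not say that each came from its own animal. The p-values weigh a difference against the spread between libraries within groups, estimated over all 56 libraries. That spread may not be one between animals.

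Gastrocnemius is mostly fast, glycolytic muscle, and its transcripts follow a daily clock. In that clock CLOCK and BMAL1 (the product of Arntl) activate genes with E-boxes in their promoters, among them the PER, CRY and REV-ERB repressors, and REV-ERB alpha (Nr1d1) in turn represses Arntl. In nocturnal rodents blood glucocorticoid rises towards lights off, and it induces genes of its receptor in muscle. Over the same hours the resting muscle of a night-fed mouse draws on stored and circulating fuel, until food returns in the dark.

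Levels are given as CPM, reads per 1000000 of the authors' library size, recovered from the deposited values, and differences as log2 units on log2(CPM + 1), ZT12 minus ZT8, with the standard error of the fit. A gene was called where its adjusted p (limma, Benjamini-Hochberg over 12025 tested genes) was under 0.05. The 8 libraries held 28173237 to 32884604 recovered reads. The defining markers of skeletal muscle were high in all 8, with a sum over 12 genes that averaged 172978 CPM at ZT12 and 187972 CPM at ZT8. Some libraries stood apart in ways their labels do not give. In NRF ZT12 replicate 3 the summed macrophage and leukocyte markers reached 274 CPM, against 89.7 to 146 CPM in the other 3. The summed slow-fibre genes varied from 779 to 7912 CPM within the ZT12 group and from 898 to 5576 CPM within the ZT8 group, and the serum albumin gene Alb reached 138 CPM in NRF ZT12 replicate 4, against 0.0312 to 19.4 CPM in the other 3. In bulk muscle a change in the number of cells of a type and a change in the RNA of each cell cannot be told apart.

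The promoters of 4 clock and glucocorticoid genes are shown first, to let the letters that their regulators are known to read be seen in place. They are RefSeq promoters of GRCm38.p6, from 250 bases before to 50 bases after a transcript start, written 5′ to 3′ on the gene's strand, with matches to the searched motifs in capitals. A gene with several starts has several windows, and the one with a match is printed. Arntl and Nr1d1 are the clock genes that fell. Of 2 windows of Arntl, which overlap, 1 holds AGGTCA, the core that REV-ERB and ROR receptors read, a motif added after the data were seen, and the only window of Nr1d1 holds no match. Of 2 windows of Per1, a repressor, 1 holds an E-box (CACGTG) and that same core on the other strand. Of 3 windows of Tsc22d3, a glucocorticoid target, 1 holds the half-site of its receptor (AGAACA) on the other strand. That window is at the most upstream start of the gene, and the other 2 hold no match. Of tested genes with a promoter 11.9% held the E-box, 14.8% the half-site and 15% the AGGTCA core.
Arntl, chr7:113207261-113207560, plus strand: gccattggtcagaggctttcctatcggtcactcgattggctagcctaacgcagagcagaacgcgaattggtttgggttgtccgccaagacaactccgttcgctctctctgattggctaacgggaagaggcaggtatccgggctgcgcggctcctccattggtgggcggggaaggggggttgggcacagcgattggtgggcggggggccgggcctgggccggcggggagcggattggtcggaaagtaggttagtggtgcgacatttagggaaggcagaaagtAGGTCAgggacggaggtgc
Nr1d1, chr11:98775328-98775627, minus strand: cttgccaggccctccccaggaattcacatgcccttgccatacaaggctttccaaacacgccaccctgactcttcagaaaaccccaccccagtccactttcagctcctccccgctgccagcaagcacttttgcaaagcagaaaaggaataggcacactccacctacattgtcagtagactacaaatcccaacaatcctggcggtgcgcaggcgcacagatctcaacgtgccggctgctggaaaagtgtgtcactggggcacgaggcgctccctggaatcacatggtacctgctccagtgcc
Per1, chr11:69098699-69098998, plus strand: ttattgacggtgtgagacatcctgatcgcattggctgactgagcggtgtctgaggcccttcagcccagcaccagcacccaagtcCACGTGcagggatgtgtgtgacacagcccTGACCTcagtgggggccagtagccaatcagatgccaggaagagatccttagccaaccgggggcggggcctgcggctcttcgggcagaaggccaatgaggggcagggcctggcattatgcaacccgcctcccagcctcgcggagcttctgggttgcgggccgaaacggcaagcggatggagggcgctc
Tsc22d3, chrX:140600473-140600772, minus strand: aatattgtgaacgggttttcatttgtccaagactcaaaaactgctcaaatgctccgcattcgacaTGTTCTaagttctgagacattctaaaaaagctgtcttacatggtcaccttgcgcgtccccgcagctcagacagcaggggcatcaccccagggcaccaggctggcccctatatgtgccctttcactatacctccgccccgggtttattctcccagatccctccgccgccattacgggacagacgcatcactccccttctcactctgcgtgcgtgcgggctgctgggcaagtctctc

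Between ZT8 and ZT12 83 genes rose and 30 fell, 0.69% and 0.249% of the 12025 genes tested, or 113 (0.94%) in all. The median difference was 0.90 log2 units over the genes that rose and −0.49 over those that fell, and 35 and 4 of them reached 1 log2 unit. The median over all tested genes was −0.01. For 74 of the 83 and 26 of the 30 the ZT12 and ZT8 libraries did not overlap, against 2.1% of all tested genes separate upwards and 2.18% downwards. The number of calls depended on single libraries. It was 54 without NRF ZT12 replicate 3, 47 without NRF ZT8 replicate 1, 75 without NRF ZT8 replicate 2 and 250 without NRF ZT12 replicate 4. Scaled to library totals 70 rose and 13 fell, and on log2 of the deposited value 65 rose and 87 fell. The count was 14 in a fit of the 8 libraries alone, and 13 of these 14 were among the 113. That fit takes the spread from fewer libraries and from these 8 only, and what lowered the count was not tested. The genes called under all 20 alternatives were Angptl7, Map3k6, Noct, Tbc1d1, Cys1, Wee1, Nudt18, Jade2 and Pfkfb3. Slc10a6 and Serpini1 were called under the 19 that tested them and fell under the filter at a mean of 5 CPM.

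Pfkfb3 (chromosome 2, 11471430 to 11554071), which makes the fructose 2,6-bisphosphate that drives glycolysis, fell furthest. It had 86.6, 99.6, 60.0 and 130.0 CPM in the ZT12 libraries, against 915, 583, 417 and 562 CPM in the ZT8 libraries. Every ZT12 library was far under every ZT8 library, and the level at ZT12 was 0.154 times that at ZT8 (−2.70 ± 0.45 log2 units, adjusted p = 0.000328). Over the NRF day its mean was 526 ± 71.3 CPM at ZT4, 619 ± 211 at ZT8, 94.0 ± 29.0 at ZT12 and 75.3 ± 19.6 at ZT16 (SD, n = 4 each). The level was high at ZT4 and ZT8 and low at ZT12 and ZT16.

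Angptl7 (chromosome 4, 148495181 to 148500462), a secreted angiopoietin-like protein, rose furthest. It had 126, 209, 167 and 56.6 CPM at ZT12, against 17.3, 18.3, 15.6 and 23.9 CPM at ZT8. The lowest ZT12 library, replicate 4, was still above all 4 at ZT8, and the fitted rise was 6.48-fold (2.70 ± 0.46, adjusted p = 0.000465). The next was Arrdc2 (chromosome 8, 70835129 to 70839720), an alpha-arrestin, a family of adaptors that bring membrane proteins to ubiquitin ligases. It had 126, 142, 119 and 158 CPM at ZT12, against 8.44, 26.4, 46.1 and 38.1 CPM at ZT8. The ZT12 libraries lay close together, while the ZT8 libraries were spread, with replicate 1 lowest. Arrdc2 rose 5.20-fold (2.38 ± 0.51, adjusted p = 0.00737, and 0.110 without NRF ZT8 replicate 1).

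**Figure D1:**
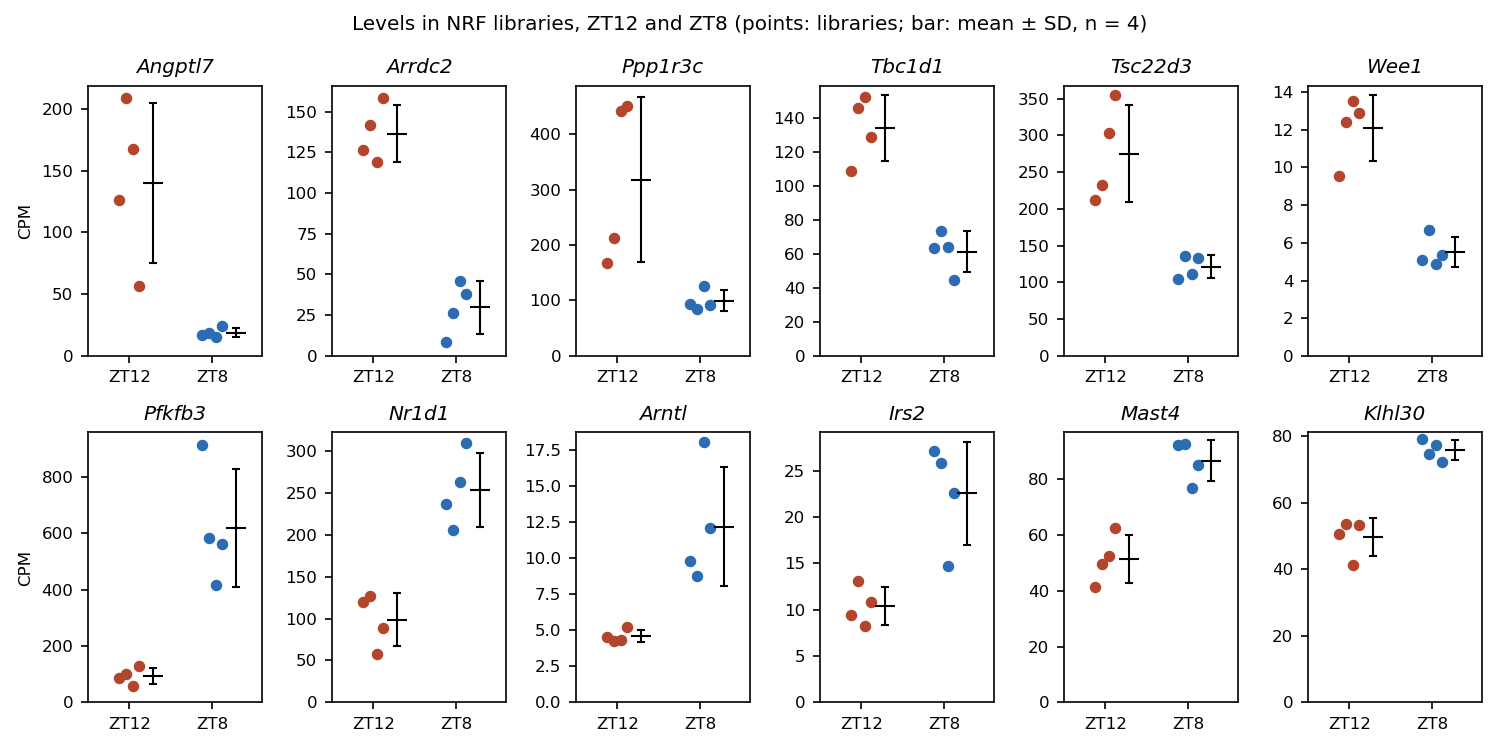
Level (CPM, linear axes from 0) of 12 genes in the NRF libraries at ZT12 (red, left) and ZT8 (blue, right), each point a library, with the mean ± SD beside it (n = 4). In each of these 12 genes the ZT12 and ZT8 libraries do not overlap, and the gap is widest for Pfkfb3, at 60.0 to 130.0 CPM at ZT12 against 417 to 915 CPM at ZT8.

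Of 5 clock activators, Arntl fell and the other 4 did not pass the test, against 0.249% of all tested genes called lower. Arntl had 4.56, 4.27, 4.36 and 5.24 CPM at ZT12, against 9.81, 8.81, 18.0 and 12.1 CPM at ZT8. All 4 ZT12 libraries sat within 1 CPM of each other and under all ZT8 libraries (−1.19 ± 0.21, adjusted p = 0.000647). Its mean of 4.61 ± 0.438 CPM at ZT12 was the lowest of the NRF day, whose highest means were 58.6 ± 7.76 CPM at ZT0 and 59.2 ± 18.2 CPM at ZT24. Clock, its partner, had a difference of −0.45 ± 0.19 (adjusted p = 0.277), the paralog Npas2 −0.30 ± 0.16 (0.456), and the receptor gene Rora, whose product activates Arntl, −0.12 ± 0.23 (0.928).

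Among the 12 clock repressors 1 fell and 0 rose, against 0.249% and 0.69% of all tested genes. At an unadjusted p under 0.05, 3 were higher and 2 lower, against 6.87% and 5.37%. Nr1d1 (chromosome 11, 98767932 to 98775377) had 120.2, 127, 58.1 and 89.2 CPM at ZT12, against 236, 206, 263 and 309 CPM at ZT8. The groups were well apart (−1.40 ± 0.27, adjusted p = 0.00219). Its counts are decimal, and it overlaps Thra, a thyroid hormone receptor gene on the opposite strand that was also called lower (−0.35). Reads from the stretch that these genes share cannot be told apart without strand. Per2 had 41.5, 41.0, 37.5 and 37.2 CPM at ZT12, against 20.3, 25.0, 11.3 and 17.1 CPM at ZT8. The groups did not overlap, yet the difference of 1.10 ± 0.34 missed the threshold (adjusted p = 0.114, and 0.0131 with a pseudocount of 5). Per1 had 109.7, 129, 104 and 115 CPM at ZT12, against 45.0, 63.5, 75.3 and 83.9 CPM at ZT8. Here too no library overlapped and the test was missed (0.80 ± 0.34, adjusted p = 0.292).

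The other repressors had smaller differences. That of Bhlhe40, a repressor of E-box genes, was −0.62 ± 0.20 (adjusted p = 0.119) and that of its paralog Bhlhe41 −0.36 ± 0.26 (0.638). Cry1 had 0.35 ± 0.13 (0.218), Cry2 0.20 ± 0.12 (0.520), Per3 0.26 ± 0.27 (0.799) and Nr1d2, the second REV-ERB, 0.05 ± 0.14 (0.955). Ciart, another repressor of the CLOCK complex, was at 0.02 ± 0.24 (0.994), and the kinase genes Csnk1d and Csnk1e, whose products phosphorylate PER, at −0.04 ± 0.06 (0.917) and −0.02 ± 0.10 (0.984). Across the alternatives the sign turned for Nr1d2, Ciart, Csnk1d and Csnk1e, and for the activator Rora.

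In the list of PAR bZIP factors, their outputs and Nfil3, 1 of 8 rose, against 0.69% of all tested genes. That gene was Tspan4, a tetraspanin gene with decimal counts, at 21.5 ± 4.42 CPM at ZT12 and 13.8 ± 1.78 CPM at ZT8 (0.59 ± 0.11, adjusted p = 0.00177). The D-box activators Dbp, Tef and Hlf had differences of −0.13 ± 0.32, 0.15 ± 0.13 and 0.34 ± 0.18 (adjusted p = 0.95, 0.708 and 0.451), and Nfil3, which represses the same sites, 0.67 ± 0.25 (0.201). Usp2, a deubiquitinase, had 0.41 ± 0.18 (0.290), Por −0.08 ± 0.09 (0.831) and Coq10b 0.06 ± 0.22 (0.965). For Dbp and Coq10b the sign turned when 1 library was left out.

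Wee1, a cell-cycle kinase gene under direct clock control in other tissues, is one of 15 genes listed as E-box or circadian muscle outputs. It had 9.56, 12.4, 13.5 and 12.9 CPM at ZT12, against 5.10, 6.66, 4.86 and 5.37 CPM at ZT8. The groups were clear of each other (1.01 ± 0.15, adjusted p = 6.59e-05). In this list 3 genes rose (Angptl7, Arrdc2 and Wee1) and 1 fell (Pfkfb3), against 0.69% and 0.249% of all tested genes. The list was put together with earlier results of these samples known, so the count is no independent evidence.

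**Figure D2:**
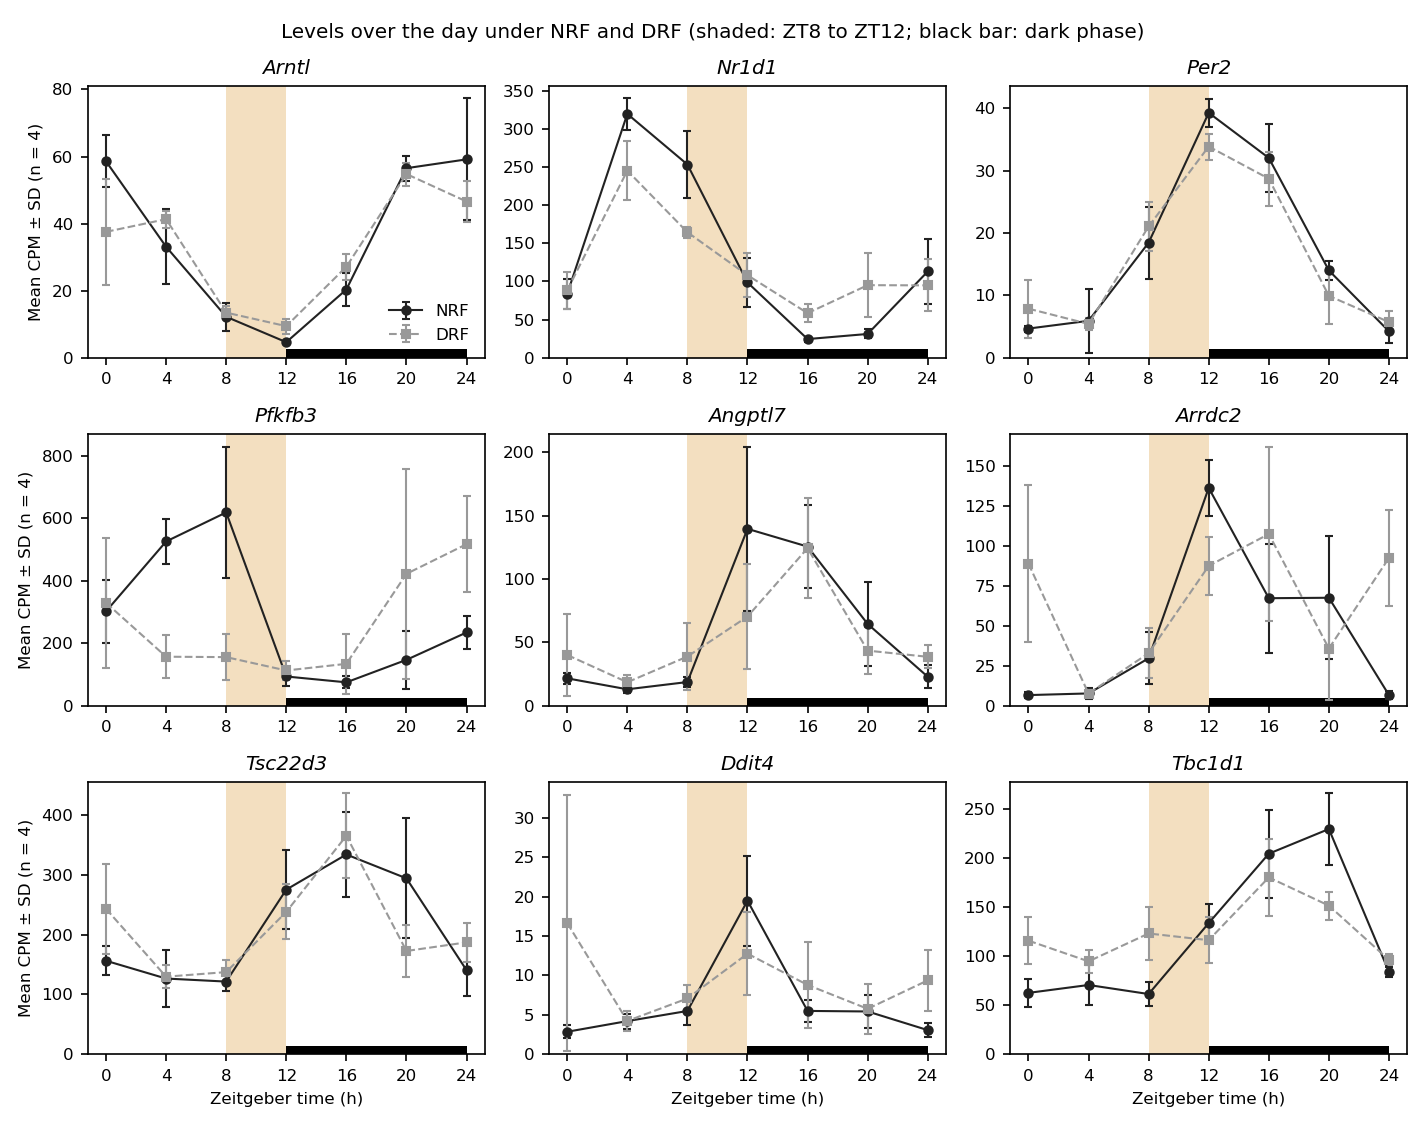
Mean level (CPM ± SD, n = 4, linear axes from 0) of 9 genes at each zeitgeber time under NRF (black circles) and DRF (grey squares), with ZT8 to ZT12 shaded and the dark phase marked by a black bar. Under NRF Pfkfb3 is at 94.0 CPM at ZT12 against 619 CPM at ZT8, while Angptl7 is at 139.7 against 18.8 CPM and Tbc1d1 goes on to 229.7 CPM at ZT20.

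Glucocorticoid targets were the list with the most calls, and that count rested on NRF ZT8 replicate 1. Of 19 tested members 7 rose and 0 fell, and 13 were higher at an unadjusted p under 0.05, against 0.69% and 6.87% of all tested genes. The median over the 19 was 0.80 log2 units, against −0.01 over all tested genes. This list too was chosen with earlier results of these data known, so its count and median are no independent evidence. The 7 were Pik3r1, Tsc22d3, Nfkbia, Cebpb, Zbtb16, Ddit4 and Cebpd. Without NRF ZT8 replicate 1 only Pik3r1 and Tsc22d3 were called, 2 of 19, while the glucose uptake and glycolysis genes held 3 calls. The count was 5 to 8 without any other one of the 8 libraries, 3 with library weights and 0 in the fit of the 8 libraries alone. The summed level of the 20 measured members was 1345 to 1669 CPM at ZT12 and 712 to 1033 CPM at ZT8, with no overlap.

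Tsc22d3 (chromosome X, 140539528 to 140600522), which encodes GILZ, a direct receptor target and an inhibitor of NF-kappaB and AP-1, had 212, 232, 303 and 355 CPM at ZT12, against 104, 136, 112 and 133 CPM at ZT8. Every ZT12 library was well above every ZT8 library (1.15 ± 0.24, adjusted p = 0.0049). Ddit4 (chromosome 10, 59949675 to 59951770), whose product REDD1 restrains mTORC1, had 20.2, 11.2, 23.3 and 23.3 CPM at ZT12, against 3.04, 5.20, 6.47 and 7.21 CPM at ZT8. ZT12 replicate 2 was the nearest to the ZT8 libraries (1.66 ± 0.38, 3.16-fold, adjusted p = 0.0131). The call of Ddit4 ended without NRF ZT12 replicate 3 (adjusted p = 0.0827) or NRF ZT8 replicate 1 (0.111). Its NRF mean was 5.48 ± 1.44 CPM again at ZT16, so its high at ZT12 stood alone among the sampled times.

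Zbtb16, a zinc-finger repressor induced by glucocorticoid in many cells, had 85.8, 114, 91.4 and 104 CPM at ZT12, against 34.8, 42.7, 63.5 and 40.5 CPM at ZT8. The groups did not overlap (1.13 ± 0.25, adjusted p = 0.01, and 0.0848 without NRF ZT8 replicate 1). Cebpb and Cebpd encode C/EBP transcription factors. Cebpb was at 47.9 ± 6.37 CPM at ZT12 and 22.2 ± 5.62 CPM at ZT8 (1.10 ± 0.23, adjusted p = 0.00602, and 0.0808 without NRF ZT8 replicate 1). Cebpd, with decimal counts, was at 32.4 ± 13.1 and 10.4 ± 3.64 CPM (1.54 ± 0.40, adjusted p = 0.0393), and its call ended without NRF ZT12 replicate 3 (0.182), NRF ZT12 replicate 4 (0.0838), NRF ZT8 replicate 1 (0.211) or NRF ZT8 replicate 2 (0.104). Nfkbia, the inhibitor of NF-kappaB, was at 38.1 ± 3.56 CPM at ZT12 and 23.1 ± 5.94 CPM at ZT8 (0.73 ± 0.15, adjusted p = 0.00552, and 0.107 without NRF ZT8 replicate 1).

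Members of the same list that did not pass included the receptor cochaperone gene Fkbp5 (0.86 ± 0.39, adjusted p = 0.338), the kinase gene Sgk1 (0.76 ± 0.34, 0.322) and the phosphatase gene Dusp1 (0.85 ± 0.24, 0.0625, and 0.0258 without NRF ZT12 replicate 1 or 0.0444 without NRF ZT8 replicate 4). The member with the lowest value was Angptl4, an inhibitor of lipoprotein lipase that fasting also induces, with 0.781, 3.42, 3.33 and 1.45 CPM at ZT12, against 1.67, 5.10, 6.81 and 4.94 CPM at ZT8. The groups overlapped (−0.79 ± 0.56, adjusted p = 0.637).

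Among genes of glucose uptake, glycolysis and glycogen the calls went in both directions. Of 28 genes of glucose uptake and glycolysis 3 rose and 1, Pfkfb3, fell, against 0.69% and 0.249% of all tested genes. The median of the 28 was −0.07. Tbc1d1 (chromosome 5, 64156305 to 64351486), a Rab GTPase activator that holds GLUT4 vesicles inside the cell until it is phosphorylated, had 109, 146, 152 and 128 CPM at ZT12, against 63.2, 73.4, 64.0 and 44.5 CPM at ZT8. No library overlapped (1.12 ± 0.19, 2.18-fold, adjusted p = 0.000397). Its NRF mean went on to 205 ± 45.1 CPM at ZT16 and 229.7 ± 36.6 CPM at ZT20.

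Arrdc3, an alpha-arrestin related to Arrdc2, had 71.9, 68.5, 81.8 and 138 CPM at ZT12, against 26.9, 33.1, 34.8 and 37.3 CPM at ZT8. Replicate 4 was the highest at ZT12 and the groups were apart (1.37 ± 0.23, 2.58-fold, adjusted p = 0.00046). Txnip, the alpha-arrestin that removes glucose transporters from the surface, lay the other way, with 327, 377, 332 and 512 CPM at ZT12, against 689.7, 856, 661 and 805 CPM at ZT8. The groups did not overlap, and the difference of −0.97 ± 0.27 missed the threshold (adjusted p = 0.0652, and 0.0319 without NRF ZT12 replicate 4). The transporter gene Slc2a4 (GLUT4) was at −0.07 (adjusted p = 0.867) and the hexokinase gene Hk2 at 0.10 (0.878).

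In glycogen metabolism 1 of 15 genes rose, against 0.69% of all tested genes. Ppp1r3c (chromosome 19, 36731731 to 36736604), which brings protein phosphatase 1 to glycogen and so favours its synthesis, had 167, 212, 442 and 451 CPM at ZT12, against 94.1, 85.2, 127 and 92.0 CPM at ZT8. ZT12 replicates 3 and 4 were far above replicates 1 and 2, and all were above the ZT8 libraries (1.55 ± 0.29, 2.93-fold, adjusted p = 0.00136), and the call ended with library weights (0.0545) and in the fit of the 8 libraries alone (0.125). ZT8 was the lowest point of its NRF day, at 99.5 ± 18.5 CPM, and its mean reached 799 ± 220.3 CPM at ZT16 and 984 ± 234 CPM at ZT20.

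Of 24 genes of insulin and IGF signalling 1 rose and 1 fell, against 0.69% and 0.249% of all tested genes. Pik3r1 (chromosome 13, 101680761 to 101768217), which encodes the regulatory p85 alpha subunit of phosphoinositide 3-kinase and stands in the glucocorticoid list too, had 95.2, 71.6, 116 and 64.9 CPM at ZT12, against 28.1, 41.2, 47.9 and 33.7 CPM at ZT8. The groups did not overlap (1.17 ± 0.24, 2.26-fold, adjusted p = 0.00404). Irs2 (chromosome 8, 10984681 to 11008929), an insulin receptor substrate and a FoxO target, had 9.40, 13.0, 8.28 and 10.8 CPM at ZT12, against 27.1, 25.8, 14.7 and 22.6 CPM at ZT8. ZT8 replicate 3 was nearest to the ZT12 libraries (−1.03 ± 0.26, adjusted p = 0.0322). The call of Irs2 ended without NRF ZT12 replicate 1 (0.0817) or 3 (0.190), or NRF ZT8 replicate 1 (0.141), 2 (0.129) or 4 (0.0720).

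**Figure D3:**
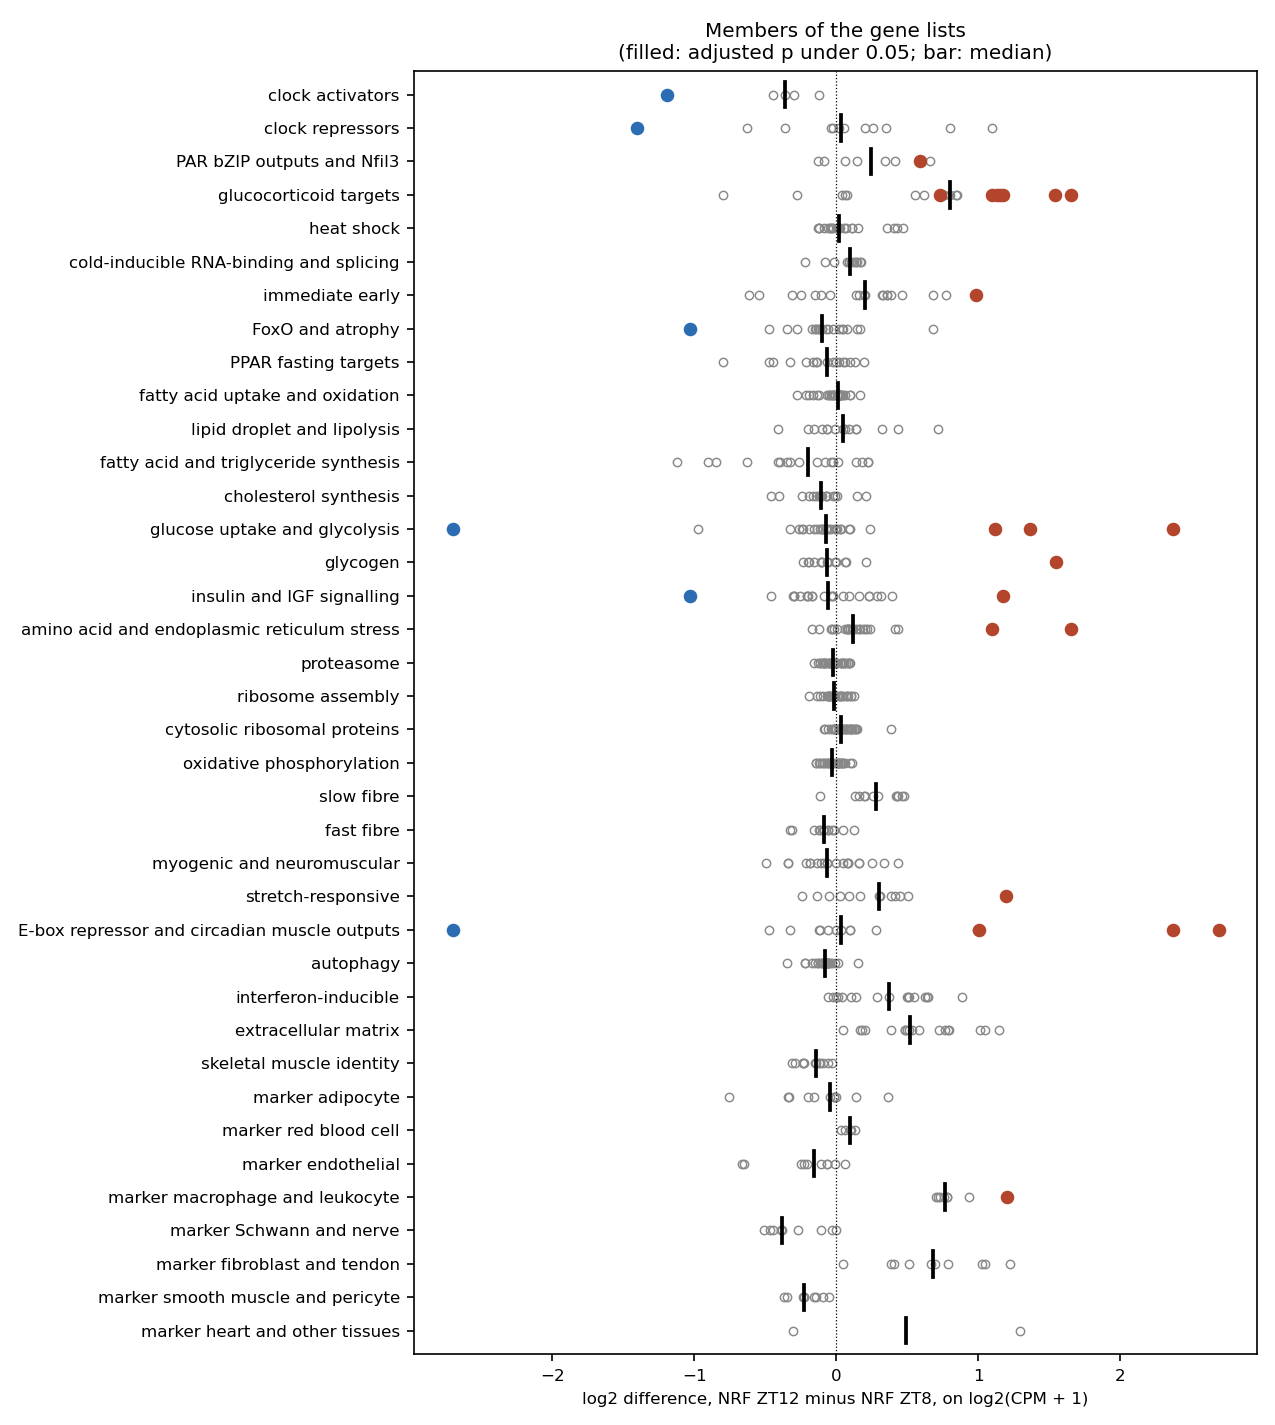
Difference between NRF ZT12 and NRF ZT8 (log2 units on log2(CPM + 1)) of every tested member of 38 gene lists, with a black bar at each list's median and filled points for genes with an adjusted p under 0.05 (red higher at ZT12, blue lower). The glucocorticoid targets hold 7 calls of 19, of which 2 are called without NRF ZT8 replicate 1, and 25 lists hold 0 calls. Of all tested genes 0.94% were called.

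Most fuel and growth lists held no call. Of all tested genes 0.94% were called, and at that share 0 calls is the usual outcome for lists of this size. At an unadjusted p under 0.05, 6.87% of all tested genes were higher and 5.37% lower. Fatty acid uptake and oxidation had 0 of 29 (limma; 0 also at an unadjusted p under 0.05), PPAR fasting targets 0 of 17 (0 unadjusted), and oxidative phosphorylation 0 of 31 (0 unadjusted), with members between −0.14 and 0.11 log2 units. Pdk4, a pyruvate dehydrogenase kinase induced by fasting, had 188, 557, 261 and 207 CPM at ZT12, against 105, 317, 634 and 659 CPM at ZT8. The groups overlapped widely (−0.32 ± 0.76, adjusted p = 0.946). Proteasome and ribosome assembly genes had 0 of 33 and 0 of 26 calls, with 1 lower at an unadjusted p in each. Cytosolic ribosomal proteins had 0 of 34 (1 higher unadjusted), heat shock 0 of 21 (1 higher) and autophagy 0 of 26 (3 lower). Cholesterol synthesis had 0 of 20 (3 lower), and fatty acid and triglyceride synthesis 0 of 18 (2 lower). Lipid droplet and lipolysis genes had 0 of 15 (1 higher and 1 lower), cold-inducible and splicing genes 0 of 12 (1 higher), fast-fibre genes 0 of 14 (0 unadjusted) and myogenic and neuromuscular genes 0 of 21 (2 higher and 3 lower). In the FoxO and atrophy list 1 of 22 fell (Irs2) and 0 rose, and Foxo1 itself was at 0.68 ± 0.24 (adjusted p = 0.174).

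The members with the smallest p in these uncalled lists were Ppard (−0.19, adjusted p = 0.542), Atp5o (−0.14, 0.752), Psmd3 (−0.15, 0.407), Utp4 (−0.19, 0.157), Rpl3 (0.39, 0.114), Dnajb4 (0.47, 0.181), Ulk1 (−0.34, 0.119), Insig1 (−0.40, 0.204) and Lpin1 (−0.41, 0.211). Rpl3 was under the threshold without NRF ZT12 replicate 4 (adjusted p = 0.0336). In other lists with at most 1 call they were Srsf2 (0.14, 0.397), Gyg (−0.19, 0.402), Tpm3 (0.48, 0.902), Atp2a1 (−0.32, 0.454), Acvr2b (−0.49, 0.0596) and Amotl2 (0.39, 0.489). Acvr2b, the myostatin and activin receptor, was lower in every ZT12 library than in any ZT8 library and was under the threshold without NRF ZT12 replicate 4 (0.0326).

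Zfp36 and Ccn2 were the calls among the immediate early (1 of 20) and stretch-responsive (1 of 13) genes. Of all tested genes 0.69% were called higher. Zfp36, which speeds the decay of AU-rich mRNAs, was at 31.3 ± 5.65 CPM at ZT12 and 16.3 ± 6.70 CPM at ZT8 (0.99 ± 0.24, adjusted p = 0.0296). Its call ended without NRF ZT12 replicate 3 (0.185), NRF ZT8 replicate 1 (0.271) or NRF ZT8 replicate 2 (0.0751). Jun was at 0.69 ± 0.23 (adjusted p = 0.159). Ccn2, a matricellular protein gene, had 58.1, 75.8, 87.3 and 53.8 CPM at ZT12, against 22.2, 30.2, 28.8 and 35.8 CPM at ZT8. The groups were apart (1.20 ± 0.25, adjusted p = 0.00602, and 0.0588 without NRF ZT12 replicate 3 or 0.0621 without NRF ZT8 replicate 1).

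Other genes among the 12 largest rises with separate libraries stood in no list. Map3k6, a MAP kinase kinase kinase gene, had 16, 17.1, 16.2 and 12.4 CPM at ZT12, against 3.14, 4.97, 5.81 and 4.60 CPM at ZT8. The groups were far apart for their spread (1.56 ± 0.23, adjusted p = 6.59e-05). Gadd45g, a growth-arrest and DNA damage-inducible gene, rose 3.13-fold (1.65 ± 0.34, adjusted p = 0.0044, and 0.0823 without NRF ZT8 replicate 1). Fam107a, which encodes an actin-binding protein, was at 7.49 ± 0.669 CPM at ZT12 and 2.45 ± 1.09 CPM at ZT8 (1.35 ± 0.27, adjusted p = 0.00337). Adh1, an alcohol and retinol dehydrogenase gene, had 38.5 to 61.0 CPM at ZT12 and 15.1 to 27.8 CPM at ZT8 (1.30 ± 0.19, adjusted p = 6.59e-05). Of 27 genes of amino acid and endoplasmic reticulum stress 2 rose, against 0.69% of all tested genes, and 0 were called without NRF ZT8 replicate 1. The 2 were Ddit4 and Cebpb, which the glucocorticoid list also holds.

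The other genes that fell had smaller changes. Mast4, a microtubule-associated kinase gene, had 41.4, 49.6, 52.3 and 62.4 CPM at ZT12, against 92.2, 92.4, 76.8 and 84.8 CPM at ZT8. The groups were apart (−0.75 ± 0.16, adjusted p = 0.00602). Gramd4 (−0.52 ± 0.11, adjusted p = 0.00517) and Foxd3, under 1 CPM in every ZT12 library (−0.54 ± 0.11, 0.00435), kept their calls whichever library was left out. Ddit4l (−0.78 ± 0.21, 0.0485), a relative of Ddit4, Sh3bp5 (−0.54 ± 0.14, 0.0322) and Gtf2ird1 (−0.49 ± 0.13, 0.0376) did not. Their adjusted p reached 0.415, 0.252 and 0.273 without NRF ZT12 replicate 3. Ddit4l also missed without NRF ZT12 replicate 1 or 2, or NRF ZT8 replicate 1, 2 or 4, Sh3bp5 without NRF ZT12 replicate 2, or NRF ZT8 replicate 3 or 4, and Gtf2ird1 without NRF ZT12 replicate 1 or 2, or NRF ZT8 replicate 1, 3 or 4.

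Lists of macrophage, connective tissue and matrix genes had positive median differences, and 1 of their genes, Cd163, passed the test. Of 8 tested macrophage and leukocyte markers 8 were higher at an unadjusted p under 0.05 and 1 was called higher, against 6.87% and 0.69% of all tested genes. The markers had a median of 0.77 log2 units. Their sum was 89.7 to 274 CPM at ZT12 and 48.0 to 137 CPM at ZT8, so that the groups overlapped, with a ZT12 mean of 156 CPM, or 117 CPM without replicate 3. The lymphocyte and granulocyte markers Cd3e, Cd79a, S100a8 and S100a9 were under 1 CPM in all 8 libraries. Cd163, the haemoglobin scavenger receptor of tissue macrophages, had 14.1, 10.1, 23.0 and 7.88 CPM at ZT12, against 3.74, 2.76, 10.9 and 4.94 CPM at ZT8. The groups overlapped (1.21 ± 0.31, adjusted p = 0.0423), and the call ended without NRF ZT12 replicate 1 (0.103) or 3 (0.402), or NRF ZT8 replicate 1 (0.178), 2 (0.237) or 4 (0.0837). Adgre1, another macrophage gene, was at 0.78 (adjusted p = 0.139, and 0.0430 without NRF ZT8 replicate 3).

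Ifi205 and Ifi207, interferon-inducible genes of the PYHIN family, rose, and both calls ended without NRF ZT12 replicate 3. Ifi205, with decimal counts, had 8.69, 14.1, 67.0 and 12.9 CPM at ZT12, against 3.95, 3.85, 4.74 and 2.68 CPM at ZT8. Even the lowest ZT12 library was above all of ZT8 (2.02 ± 0.41, adjusted p = 0.00404), and without replicate 3 the difference was 1.42 (0.0861). Ifi207 (1.30 ± 0.27, adjusted p = 0.00552) was at 0.97 and missed the test without it (0.109). In the list of 17 interferon-inducible genes 0 were called and 3 were higher at an unadjusted p, against 0.94% and 6.87% of all tested genes. The median was 0.37, and the list was led by Ifit3 (0.89, adjusted p = 0.162). Whether the cell content of replicate 3 accounts for these values was not tested.

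Of 18 tested extracellular matrix genes 0 were called and 12 were higher at an unadjusted p under 0.05, against 0.94% and 6.87% of all tested genes. The median of the list was 0.52 log2 units. Col1a2, a type I collagen chain gene, had 571, 1035, 1411 and 502 CPM at ZT12, against 438, 208, 373 and 504 CPM at ZT8. The highest ZT8 library stood just above the lowest ZT12 library (1.15 ± 0.40, adjusted p = 0.168). The fibroblast and tendon markers, which share Col1a1, Dcn and Lum with the matrix list, had 0 of 10 called and 8 higher unadjusted, with a median of 0.68. Their sum was 1352 to 2886 CPM at ZT12 and 859 to 1557 CPM at ZT8, and the groups overlapped. Tnmd, a tendon gene, was at 1.03 (adjusted p = 0.194). The part of connective tissue in the other rises was not tested.

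Markers of the other tissues did not pass. Of all tested genes 0.94% were called, and at an unadjusted p under 0.05 6.87% were higher and 5.37% lower. Endothelial markers had 0 of 10 called (2 lower unadjusted), with sums of 303 to 494 CPM at ZT12 and 327 to 595 CPM at ZT8, and Cldn5 was at −0.65 (adjusted p = 0.0966, and 0.0440 with quantile scaling). Adipocyte markers had 0 of 11 called (1 lower unadjusted, Adrb3 at −0.76, adjusted p = 0.309), with sums of 3773 to 7556 CPM at ZT12 and 4607 to 6107 CPM at ZT8. Most of each adipocyte sum was Car3, at 3368 to 7199 CPM at ZT12 and 4209 to 5792 CPM at ZT8. Adipoq was at 13.0 to 37.0 CPM at ZT12 and 14.7 to 44.2 CPM at ZT8. Schwann and nerve markers had 0 of 9 called (0 unadjusted, smallest p Sox10 at −0.44, 0.614), with sums of 170.2 to 411 CPM at ZT12 and 182 to 851 CPM at ZT8. Smooth muscle markers had 0 of 9 called (2 lower unadjusted), and red blood cell genes 0 of 5 (0 unadjusted, smallest p Hbb-bs at 0.13, 0.95). The muscle markers themselves had 0 of 12 called (1 lower unadjusted, Des at −0.23, 0.338). Of the heart and other-tissue markers only 2 could be tested, and Alb was at 1.29 ± 1.23 (0.762). The slow-fibre list had 0 of 12 called and 0 unadjusted, with a median of 0.28 log2 units beside the wide spread of its sums within each group.

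**Figure D4:**
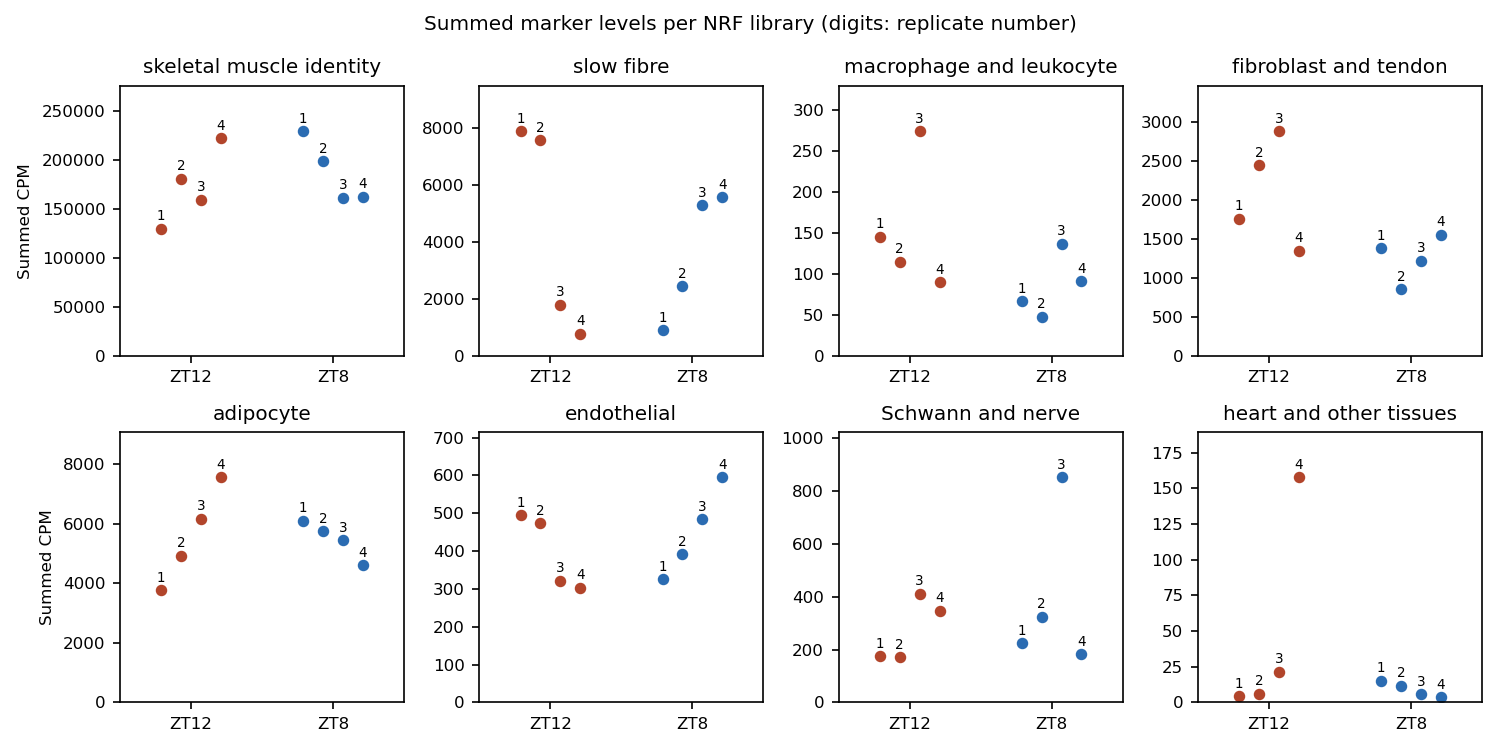
Summed CPM (linear axes from 0) of 8 marker lists in each NRF library at ZT12 (red, left) and ZT8 (blue, right), with digits giving the replicate number. ZT12 replicate 3 stands out for macrophage and leukocyte markers at 274 CPM, replicates 1 and 2 of ZT12 for slow-fibre genes at 7912 and 7590.1 CPM, and replicate 4 of ZT12 for other-tissue markers at 158 CPM. The adipocyte sum is mostly the gene Car3.

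The same clock hours under DRF, when food was present, were set beside the NRF step. The regimens differed over the whole feeding cycle and not only in these hours. The fast from ZT8 to ZT12 therefore cannot be told apart from the rest of the regimen. The NRF and DRF steps share no library. Of the 83 genes that rose under NRF, 72 also had a positive DRF step, against 45.7% of all tested genes, and of the 30 that fell 25 had a negative one, against 54.3%. The median DRF step was 0.33 log2 units over the 83 and −0.14 over the 30. The NRF step was the larger for 79 of the 83 and all of the 30, which the choice of genes by their NRF step favours. Under DRF 22 genes were called higher (0.183%) and 30 lower (0.249%). Shared calls were 9 of the 83 and 9 of the 22 upwards, and 0 of 30 and 0 of 30 downwards. The 9 were Fmo2, Serpini1, Adh1, Nmb, Slc25a30, Dusp7, Arrdc3, Prima1 and Ip6k3.

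**Figure D5:**
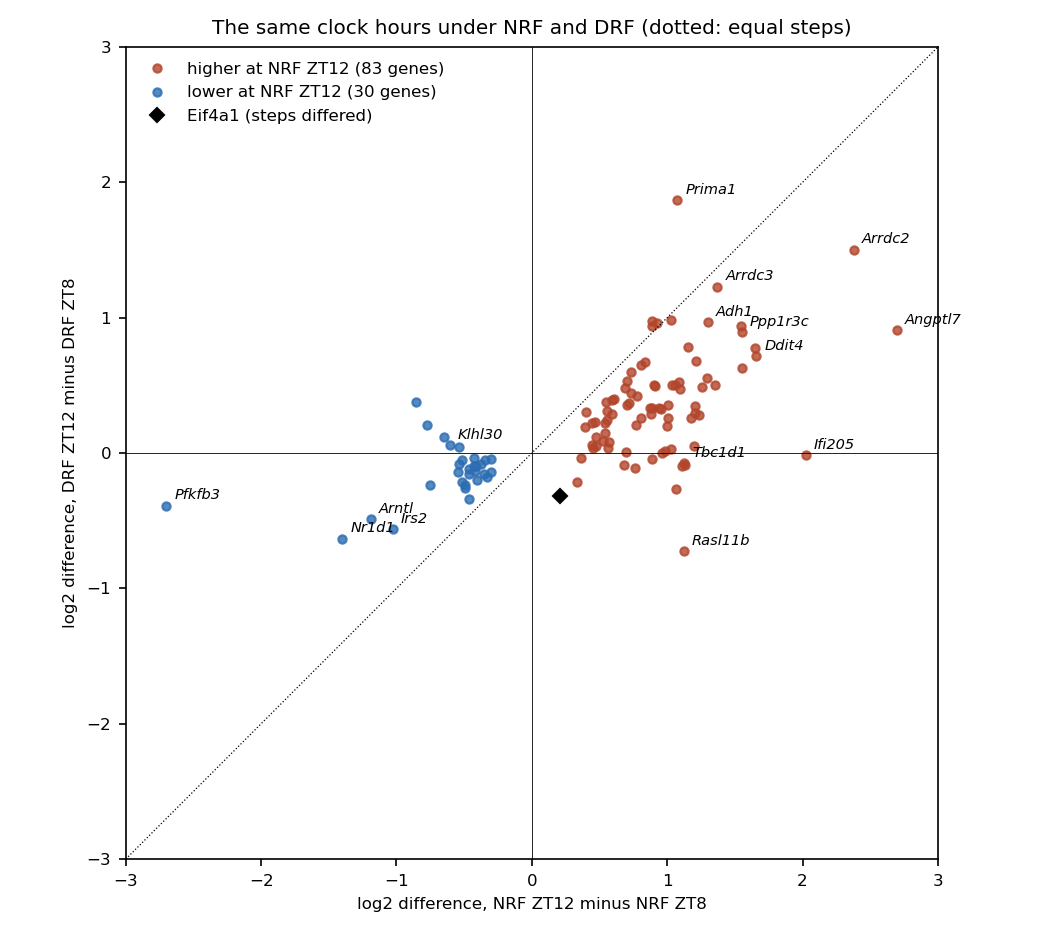
Difference between ZT12 and ZT8 under NRF (horizontal axis) and under DRF (vertical axis), in log2 units on log2(CPM + 1), for the 113 genes called under NRF and for Eif4a1, with the dotted line marking equal steps. Most of the 83 red points lie between the dotted line and 0, and Pfkfb3 stands alone at −2.70 under NRF and −0.39 under DRF.

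The difference between the steps passed the test for 2 genes, 0.0166% of those tested, with 1345 genes at an unadjusted p under 0.05. Eif4a1, the RNA helicase of translation initiation, had 116, 106, 121 and 104 CPM at NRF ZT12, against 97.6, 98.1, 97.5 and 91.9 CPM at NRF ZT8. Under DRF it had 96.8, 104, 102 and 111 CPM at ZT12, against 133, 118, 134 and 133 CPM at ZT8. The groups did not overlap in either regimen. The NRF step was not called (0.21 ± 0.07, adjusted p = 0.121), the DRF step was called lower (−0.31 ± 0.07, 0.0176), and the steps differed by 0.53 ± 0.09 log2 units (NRF minus DRF, adjusted p = 0.0170). Klhl30, a kelch-like gene, had 50.7, 53.6, 41.2 and 53.3 CPM at NRF ZT12, against 79.2, 74.6, 77.4 and 72.3 CPM at NRF ZT8. Under DRF it had 78.2, 73.5, 74.6 and 77.9 CPM at ZT12, against 80.9, 67.2, 80.2 and 65.4 CPM at ZT8. The NRF groups were apart and the DRF groups overlapped, and the steps differed by −0.66 ± 0.13 (adjusted p = 0.0464).

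The count of 2 moved with single libraries. It was 0 without NRF ZT12 replicate 3, NRF ZT8 replicate 4, DRF ZT12 replicate 1, DRF ZT12 replicate 3 or DRF ZT8 replicate 4. It was 1 without NRF ZT8 replicate 1, 2 or 3, DRF ZT12 replicate 4 or DRF ZT8 replicate 2. It was 4 without DRF ZT8 replicate 1, 9 without NRF ZT12 replicate 1 and 12 without NRF ZT12 replicate 4.

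For the genes of the NRF step the difference from DRF was mostly not resolved. Tbc1d1 stepped by 1.12 under NRF and −0.08 under DRF (adjusted p of the difference 0.0711). Pfkfb3 stepped by −2.70 and −0.39 (0.201), with DRF means of 113 ± 30.6 CPM at ZT12 and 156 ± 73.2 CPM at ZT8. For Zbtb16 the steps were 1.13 and −0.09 (0.234), for Angptl7 2.70 and 0.91 (0.337), for Nr1d1 −1.40 and −0.63 (0.445) and for Arntl −1.19 and −0.49 (0.388). Arrdc3 stepped by 1.37 and 1.23 (0.909) and was called in both regimens.

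Over the NRF day ZT12 was the highest of the 6 means from ZT0 to ZT20 for 57 of the 83 genes that rose, against 17.4% of all tested genes, and ZT16 was for 21. It was the lowest for 18 of the 30 that fell, against 15.3%. The rule for calling these genes already used ZT12 and ZT8, so the shares describe them and support nothing. By ZT16 the mean of 23 of the 83 and 9 of the 30 had gone back past the midpoint of the step. In the authors' deposited table of NRF rhythm tests, made from the same libraries, 70 of the 83 and 20 of the 30 had an adjusted p under 0.05, against 8.57% of tested genes. The phase in the authors' deposited table was at least 10 and under 16 h for 40 of those 70 that rose, and under 8 h for 17 of those 20 that fell. Of all 1031 tested genes under that adjusted p, the same spans held 263 and 348. The rhythm tests include the ZT8 and ZT12 libraries that chose the genes, so these shares and phases are no independent support either. The authors' deposited table lists phases of 5.30 h for Pfkfb3, 5.97 h for Nr1d1, 13.1 h for Ddit4, 14.4 h for Arrdc2 and 16.8 h for Angptl7, and an adjusted p of 0.581 for Irs2.

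Promoter motifs were counted as a description, on both strands of the same window, in the tested genes with a RefSeq promoter (69 of the 83 that rose, 24 of the 30 that fell and 9612 in all). The E-box was present in 8 of the 69 (11.6%) and 7 of the 24 (29.2%), against 11.9% of tested genes and 7.15% of the 32851 promoters in the table. The glucocorticoid receptor half-site was present in 10 (14.5%) and 5 (20.8%), against 14.8% and 19% of promoters. The heat shock element GAANNTTC was in 4 and 2, the D-box TTATGTAA in 1 and 0, the cyclic AMP response element TGACGTCA in 0 and 2, and the forkhead motif TGTTTAC in 1 and 0. The corresponding shares of tested genes were 6.93%, 0.593%, 3.54% and 3.05%, and of all promoters 7.86%, 0.938%, 1.79% and 3.65%. The REV-ERB and ROR core AGGTCA was in 9 (13%) and 4 (16.7%), against 15% of tested genes and 16.3% of promoters.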

How the data were processed

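Polyadenylated RNA of gastrocnemius was sequenced on a BGISEQ-500 with paired reads, per the labels' protocols, and the submitters' processing notes name HISAT2, Bowtie2, RSEM, mm10 and GRCm38.p6. The table that the authors deposited as TPM holds a score, the log2 of 1 plus CPM divided by gene length and scaled so that each library sums to 1000000. It was inverted to read counts for 17443 of 19072 genes (15409 whole within 0.02 reads, 2034 decimal). The formula gave 5293 of 5324 checked values for 3 to 10 reads (99.4%). The authors' library size was 0.854 to 1.21 times the recovered total, and no source read for it says how it was derived. The labels do not say whether the libraries mark strand, so overlapping genes may share reads.

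Differences were tested on log2(CPM + 1) for 12025 genes with a mean of at least 1 CPM (1399 with decimal counts), with limma 3.58.1 in R 4.3.3 on all 14 groups of 4, and Benjamini-Hochberg adjustment. The count model that raw counts would call for was not used on these values, and limma voom was added after the data were seen. On simulated counts (12011 genes, NRF ZT12 against NRF ZT8) 73% of changes of 1 log2 unit and 100% of 2 were called, with 8 false calls. The simulation gave every gene the same dispersion and held no library that stood apart. Its shares therefore check the fit and do not measure sensitivity in these uneven libraries. Rhythm p-values are the authors' own, from their deposited table. The genes named were the 12 largest changes each way with separate libraries, up to 5 called members of each list (or the member with the smallest p), all clock genes and the genes whose steps differed. Some genes under this rule are not reported here. The 17 others were chosen after their values were seen. The lists and the comparison were chosen with earlier results of these data known. The alternatives were scaling, pseudocount, filter, library weights, length trend, replicate block, the groups in the fit and each library left out. Precision is limited by the 4 libraries a group and by 28173237 to 36183624 reads a library.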

Additional observations from a re-analysis of the deposited data

Results flagged for a closer look

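Among the 4 libraries of a group, a highest or lowest value stood apart by Dixon's gap over range in 18 of 200 checks on the genes named here. For independent checks on genes not chosen by their values chance gives about 1 in 20, or 10. Some of these genes, Lyve1, Irf4 and Ifi211 among them, were chosen after their values were seen. The checks also share libraries, so the excess over 10 supports nothing. Of the 18, 11 fell on NRF ZT12 replicate 3. In that library the immune genes Ifi205 (67.0 CPM), Ifi207 (26.1), Ifi211 (20.1), Ifit3 (27.6), Irf4 (12.0), Adgre1 (11.4) and Lyve1 (42.3) were highest, as were Rpl3 (100.1) and the Schwann cell gene Sox10 (3.89). Dbp (119 CPM) and Gtf2ird1 (7.04) were lowest there. The cause was not tested.

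In NRF ZT12 replicate 4 Cry2 (72.2 CPM) and Alb (138 CPM) were highest. Cebpb (38.5 CPM, replicate 1) and Adrb3 (0.444 CPM, replicate 2) were lowest among the ZT12 libraries. Among the NRF ZT8 libraries Adrb3 was highest in replicate 3 (5.87 CPM), Bhlhe40 lowest in replicate 3 (188 CPM) and Eif4a1 lowest in replicate 4 (91.9 CPM).

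The step differed between NRF and DRF for Eif4a1 (0.53 log2 units, NRF minus DRF) and Klhl30 (−0.66), by the limma test of the difference reported above.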

How the results depend on the processing

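The 113 calls became 62 with library weights (57 shared with the 113), 14 in the fit of only the groups compared (13 shared), and 47 to 250 when 1 library was left out. The other alternatives gave 83 to 152 calls. The 2 genes whose steps differed became 4 with library weights, 3 with no filter, 0 with only the groups compared, and 1 with log2 of the deposited value, a pseudocount of 5, quantile scaling, scaling to totals or the replicate block, and 0 to 12 with 1 library left out. The causes were not tested, and some of these fits hold fewer libraries.

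Replicate numbers did not pair the samples (correlations of same-numbered libraries −0.51, −0.16, 0.25 and −0.60). The replicate block gave 118 calls, 111 of them shared.

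Of 46 named genes called, 7 lost no call in the alternatives that tested them (20, or 19 for Slc10a6), and 0 changed sign. The 7 glucocorticoid calls became 2 to 8 with 1 library left out. Signs turned for 9 of the 56 not called. Log2 of the deposited value gave Nr1d2 −0.0099 and Ciart −0.011. Scaling to totals gave Csnk1d 0.029 and Csnk1e 0.044, and quantile scaling Csnk1e 0.0070. With 1 library left out the differences ran from −0.30 to 0.031 for Rora, −0.029 to 0.13 for Nr1d2, −0.19 to 0.18 for Ciart, −0.069 to 0.0054 for Csnk1d, −0.15 to 0.051 for Csnk1e, −0.34 to 0.010 for Dbp, −0.061 to 0.14 for Coq10b, −0.075 to 1.15 for Tpm3 and −0.011 to 0.33 for Hbb-bs. Depth limits genes near 1 CPM, where the pseudocount shrinks differences.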

Other observations

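Some genes outside the lists and the rule, chosen after their values were seen, were also called. Noct, which encodes the circadian deadenylase-family protein nocturnin, had 35.3, 43.4, 44.0 and 34.9 CPM at NRF ZT12, against 14.7, 20.5, 14.3 and 16.4 CPM at NRF ZT8. The groups did not overlap (1.21 ± 0.22, limma adjusted p = 0.000869). Glul, glutamine synthetase, had 542, 503, 525 and 561 CPM at ZT12, against 227, 303, 309 and 266 CPM at ZT8. The ZT12 libraries lay close together above all of ZT8 (0.95 ± 0.22, adjusted p = 0.0130, and 0.0964 without NRF ZT8 replicate 1).

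Slc10a6, a transporter of sulphated steroids, had 3.75, 3.55, 4.18 and 3.89 CPM at ZT12, against 0.534, 0.812, 1.51 and 1.41 CPM at ZT8. The groups were apart (1.26 ± 0.22, adjusted p = 0.000465). The flavin monooxygenase genes Fmo1 and Fmo2, neighbours on chromosome 1, were at 0.69 ± 0.18 (adjusted p = 0.0388) and 0.88 ± 0.23 (0.0457), and the sulphotransferase gene Sult1a1, with decimal counts, at 0.70 ± 0.15 (0.00933). Hif3a, a hypoxia-inducible factor subunit, was at 2.21 ± 0.345 CPM at ZT12 and 0.946 ± 0.282 CPM at ZT8 (0.73 ± 0.16, 0.00933). Prima1, which anchors acetylcholinesterase, rose by 1.07 ± 0.28 under NRF (0.0393) and by 1.87 under DRF (0.000257), and the steps were not resolved from each other (0.445). The calls of Fmo1, Fmo2, Sult1a1, Hif3a and Prima1 ended when one or another library was left out.

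Lyve1, Irf4 and Ifi211, among the genes chosen after their values were seen, each had their highest value in NRF ZT12 replicate 3, and each call ended without it. Lyve1, a hyaluronan receptor of lymphatic vessels and tissue macrophages, was at 1.24 ± 0.28 (adjusted p = 0.0137), and at 0.84 (0.278) without that library, 0.0808 without NRF ZT8 replicate 1 and 0.0751 without NRF ZT8 replicate 2. Irf4, a transcription factor of leukocytes, was at 1.11 ± 0.23 (0.00552), and at 0.74 (0.126) without it. Ifi211, with decimal counts, was at 1.20 ± 0.28 (0.0176), and at 0.71 (0.356) without it, and its adjusted p was 0.0713 without NRF ZT8 replicate 1, 0.0571 without NRF ZT8 replicate 2 and 0.0503 without NRF ZT8 replicate 4.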
